A study of Rattus norvegicus with 6 samples.

Results

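The renal cortex of vehicle-treated male rats was described from the 3 arrays of the corn oil group, which were chosen by the sample titles (VC) and are 3 of the 6 arrays in the series. The animals were male Sprague-Dawley rats of the Crl:CD(SD) stock, bought at an age of 5 weeks, kept on a basal diet and given corn oil, the vehicle, for 4 weeks. Each array held Cy3-labelled RNA of 1 rat, and the series describes the rats as biological replicates. The other 3 arrays carry RNA of rats given anthraquinone at 1000 mg/kg/day in the same weeks and were not used. With 1 group there is no contrast to test, so all values are descriptions, and n is 3 for every mean ± SD.

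The renal cortex holds glomeruli, in which podocytes and fenestrated endothelium filter plasma, and the tubules that reclaim most of the filtrate. The proximal tubule, the bulk of cortical tissue, takes up glucose, phosphate, amino acids and filtered protein, secretes organic anions and cations, and makes glucose from lactate and amino acids. The thick ascending limb and distal convoluted tubule then reabsorb salt, and principal and intercalated cells of the connecting tubule and collecting duct set the final water, potassium and acid content of the urine. Many of these tasks fall to single members of large gene families, so that which paralog is present marks the segment.

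Each array held 61657 non-control probes, and 27460 of them carried an accession that led to 1 of 15284 gene symbols. The signal given throughout is the log2 processed intensity minus the array's 75th percentile, so that 0 marks that percentile. The percentile itself lay at an intensity of 1190, 903 and 956 on replicates 1, 2 and 3, and 68.7, 70.5 and 70.7% of probes were well above background. Replicate 1 lay on a slide of its own among the corn oil arrays and in row 2, while replicates 2 and 3 shared a slide and row 1. Slide and animal can therefore not be told apart for replicate 1. Across all non-control probes the arrays correlated at r = 0.990 (replicates 1 and 2), 0.990 (1 and 3) and 0.992 (2 and 3), where probes are not independent replicates.

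Of the 15284 genes, 11807 (77.3%) were well above background on all 3 arrays by their brightest probe. Every probe was at background on all 3 arrays for 2710 genes (17.7%), and 767 lay in between. The median signal was -1.09 over all genes and 0.20 over those above background. Between the arrays a gene above background varied little, with a median SD of 0.116 and a 90th percentile of 0.329.

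The order of genes is an order of signals, since probes differ in how well they bind their targets. In 4176 genes with exactly 2 probes above background, the probes, which carry the same gene name, differed by a median of 1.70, by up to 3.05 in 3 of 4 such genes and by over 4.46 in 1 in 10. Gaps between genes that are smaller than these values do not order their transcripts.

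Metabolic enzymes of the proximal tubule, iron-storage and mitochondrial proteins and a few transporters led the order of signals. The brightest gene was Miox, which encodes the inositol-cleaving enzyme myo-inositol oxygenase of the proximal tubule, at 9.13, 9.49 and 9.50 on replicates 1, 2 and 3 (9.37 ± 0.21). Ftl1, the ferritin light chain, read 9.10, 9.41 and 9.40, and Fth1, the heavy chain, read 8.67, 9.07 and 9.0. Replicate 1, whose 75th percentile was the highest, was the lowest of the 3 arrays in each of these genes. Before scaling, Fth1 lay at intensities of 486420, 486390 and 489660 and Miox at 665450, 647290 and 692170. The scanner's saturation value was 778938 on replicate 1 and 779044 on replicates 2 and 3. Whether signals this bright are compressed was not tested. Kap, the androgen-dependent kidney protein of proximal tubule cells, read 9.17, 9.48 and 9.01, with replicate 3 lowest. Fbp1, the fructose bisphosphatase of gluconeogenesis, read 8.95, 9.15 and 9.15, and Cyp4a2, a fatty acid hydroxylase, 8.63, 9.14 and 9.13. Umod, which encodes uromodulin, the main protein of normal urine and a product of the thick ascending limb, read 8.87, 9.18 and 8.83. It was the brightest gene that belongs to no proximal tubule list.

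Other genes among the 30 brightest fell into a few groups. Mitochondrial proteins were Atp5f1a (8.91 ± 0.12), Cox6a1 (8.64 ± 0.09), Chchd10 (8.29 ± 0.08), Atp5me (8.25 ± 0.09) and the Chchd2 relative Chchd2l3 (8.70 ± 0.11). Ribosomal proteins were Rpl41 (8.87 ± 0.16), Rplp1 (8.45 ± 0.10) and Rplp0 (8.38 ± 0.08). Transporters were Slc13a3 (8.70 ± 0.11), which carries dicarboxylates, Slc34a1 (8.53 ± 0.14), which carries phosphate, and Slc3a1 (8.35 ± 0.18), the heavy chain of the cystine carrier. Cyp4a8 (8.46 ± 0.11) and Cyp2c23 (8.44 ± 0.04), the arachidonic acid epoxygenase of rat kidney, were further cytochromes P450. The lysosomal proteases Ctsb (8.66 ± 0.07) and Ctsa (8.44 ± 0.12), the ubiquitin gene Ubb (8.67 ± 0.12) and the cyclophilin gene Ppia (8.61 ± 0.08) are general housekeeping genes. Gpx1 (8.26 ± 0.19), a glutathione peroxidase, Mt1 (8.65 ± 0.38), a metallothionein, and the alpha globin gene Hba-a1 (8.43 ± 0.21) were also on the list. Mt1 had the largest SD of the 30, with 8.69, 8.25 and 9.0 on the 3 arrays.

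Ceacam9, a member of the carcinoembryonic antigen family, showed how far a rank can rest on 1 probe. Its brightest probe read 8.50, 8.76 and 8.70, and its other probe was not above background on any array. Rplp0, Hba-a1 and Ppia also had probes 5.96, 4.12 and 4.0 below their brightest. Umod and Gpx1 had probes that differed by 0.15 and 0.03. The list itself was much the same on each array, with 24 genes among the 30 brightest of every array and 95 among the 100 brightest of every array. Of the 100 brightest genes, 17 encoded ribosomal proteins and 13 subunits of the respiratory chain or ATP synthase.

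**Figure D1:**
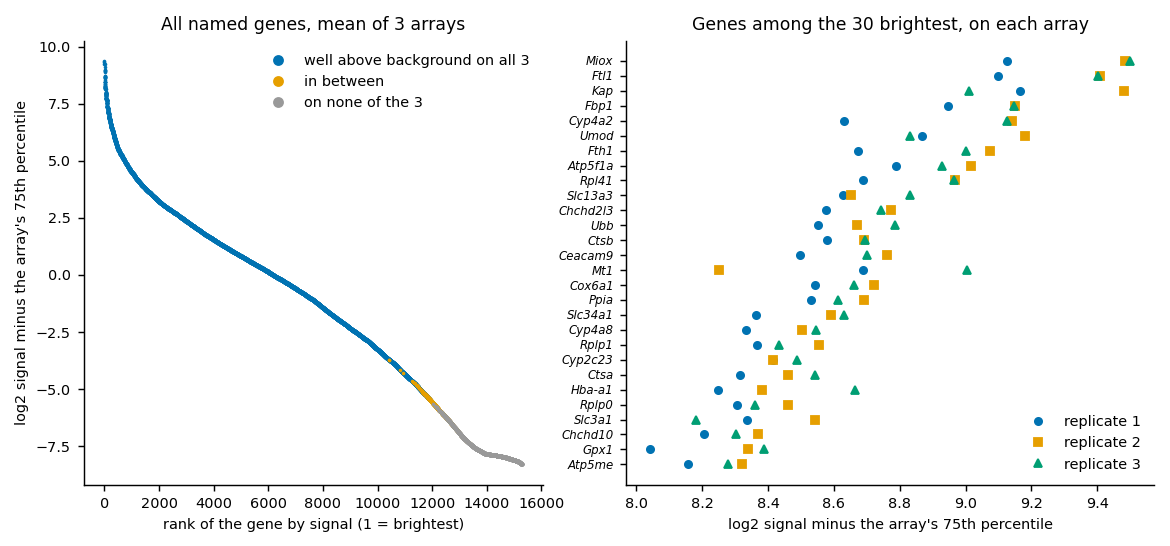
Signals of all 15284 named genes by rank, as means of 3 arrays (left; colours give how many arrays were well above background), and 28 of the 30 brightest genes on each corn oil array (right). The x axis on the right and the y axis on the left are log2 processed intensity minus the array's 75th percentile. On this scale replicate 1 (circles), whose 75th percentile was the highest, lies lowest for most of the genes shown. Mt1 has the widest spread.

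Promoters of 5 bright genes are shown as the 160 bases before the RefSeq transcription start (GRCr8), 5′ to 3′ on the gene's strand. Matches on either strand to TATAAA (the TATA box), GGGCGG (the GC box) and CTTCCGG (the core bound by ETS factors) are in capitals, and no match overlapped another in these sequences. Miox lies at chr7:122284500-122284659 (+ strand), Slc34a1 at chr17:9238984-9239143 (- strand) and Kap at chr4:168409033-168409192 (- strand). They are bright genes of the proximal tubule. Rpl41 at chr7:1563498-1563657 (- strand) and Atp5me at chr14:1464700-1464859 (+ strand) are a ribosomal and a mitochondrial gene.
Miox: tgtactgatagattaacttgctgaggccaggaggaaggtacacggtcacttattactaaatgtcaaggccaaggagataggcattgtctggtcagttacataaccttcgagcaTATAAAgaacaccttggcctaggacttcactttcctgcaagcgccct
Slc34a1: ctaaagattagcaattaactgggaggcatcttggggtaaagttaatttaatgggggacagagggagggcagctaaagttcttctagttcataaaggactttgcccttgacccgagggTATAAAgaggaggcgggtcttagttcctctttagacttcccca
Kap: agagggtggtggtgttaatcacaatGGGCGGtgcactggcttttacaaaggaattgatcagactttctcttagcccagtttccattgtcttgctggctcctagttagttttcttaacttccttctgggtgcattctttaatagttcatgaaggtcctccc
Rpl41: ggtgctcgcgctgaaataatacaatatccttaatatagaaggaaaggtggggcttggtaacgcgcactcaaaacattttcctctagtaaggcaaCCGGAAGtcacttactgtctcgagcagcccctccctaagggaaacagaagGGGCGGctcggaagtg
Atp5me: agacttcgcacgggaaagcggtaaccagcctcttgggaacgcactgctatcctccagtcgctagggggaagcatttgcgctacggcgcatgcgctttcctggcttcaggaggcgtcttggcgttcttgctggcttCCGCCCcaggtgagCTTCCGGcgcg

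Miox and Slc34a1 held TATAAA, whose first base lay at -47 and -43. Kap held GGGCGG at -135 and no TATAAA in this window. Rpl41 and Atp5me held no TATAAA either and held GGGCGG, at -16 and -25, and CTTCCGG, at -66 and -11. Over the 250 bases before the start, TATAAA was present in 37.5% of the 24 promoters matched among the 30 brightest genes and in 13.1% of all 27457 promoters. In the proximal tubule list of S1 and S2, TATAAA was present in 14.3% of 14 matched promoters, close to the share of all promoters. Promoters of genes above and below background were set side by side in the same way. GGGCGG was present in 54.1% of 9639 promoters of genes above background and 17.9% of 2226 promoters of genes with no probe above background. CTTCCGG was present in 14.0 and 2.07% of them and TATAAA in 8.10 and 24.0%. Olfactory receptors made up 764 of the 2710 genes with no probe above background. In the 938 matched promoters of all olfactory receptor genes, GGGCGG was present in 0.853%, CTTCCGG in 0.107% and TATAAA in 36%. The shares without this family were not computed. GGGCGG was present in 56.2% of 64 promoters of cytosolic ribosomal proteins and 35.4% of 65 promoters of the respiratory chain and ATP synthase. In the same groups CTTCCGG was present in 25 and 29.2%, so most of their promoters did not hold it. A match is a string of letters and does not show that a factor binds there.

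Markers of nephron segments and of other cells of the cortex were read from 15 lists, whose 144 matched genes had a median signal of 1.38. Of these, 136 (94.4%) were above background on all 3 arrays, against 77.3% of all genes. In bulk tissue, fewer cells of a type and less RNA per cell cannot be told apart.

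All 18 matched podocyte genes were above background, with a median signal of 0.35. Actn4, an actin crosslinker also made by many other cells, read 4.26, 4.36 and 4.41. Podxl, the sialoprotein that coats podocyte foot processes and endothelium, read 4.06, 4.05 and 3.95. Clic5, a chloride channel-like protein of foot processes, read 4.0, 3.82 and 4.17. No array stood clearly apart in any of them. The slit diaphragm gene Nphs1 (nephrin) had a mean of 1.08 and the transcription factor gene Wt1 one of -0.32.

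The proximal tubule list of segments S1 and S2 was the brightest of the cell lists, with a median of 5.46 and all 15 genes above background. Slc13a3 read 8.63, 8.65 and 8.83. Slc34a1, the main phosphate carrier of the brush border, read 8.36, 8.59 and 8.63. Slc22a6, the basolateral organic anion exchanger OAT1, read 8.15, 8.19 and 8.33. The 3 arrays lay close together for each, with replicate 3 highest. Slc22a8 (OAT3, 7.84 ± 0.13), Slc5a2 (the glucose carrier SGLT2, 7.38 ± 0.06) and Lrp2 (the endocytic receptor megalin, 6.53 ± 0.15) followed, and Slc5a12, a lactate carrier, was the dimmest at 1.88.

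The 8 genes of the proximal straight tubule, segment S3, were all above background with a median of 2.36. Between arrays, 2 of them varied by more than 1. Slc3a1, which encodes rBAT and is also active in earlier proximal segments, read 8.34, 8.54 and 8.18. Slc7a13, the light chain that pairs with rBAT in S3, read 6.84, 6.90 and 5.51, so that replicate 3 lay more than 1 below the others. Ggt1, gamma-glutamyl transferase, read 6.18, 6.22 and 5.96. Slc22a7, the organic anion carrier OAT2, read 0.81, -0.41 and -0.55 and was highest in replicate 1. Slc5a1, the high-affinity glucose carrier SGLT1, was the dimmest at -1.38.

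The thick ascending limb list had all 11 matched genes above background and a median of 2.05. Besides Umod, Egf, the growth factor precursor shed into urine, read 5.22, 5.02 and 5.42. Casr, the calcium-sensing receptor, had a mean of 3.99, and the paracellular magnesium and calcium pore gene Cldn16 -0.48. Slc12a1 was not analysed here. The macula densa list was dim. Robo2 read -1.10, -1.31 and -1.17 and Ptgs2, the inducible cyclooxygenase, -5.25, -5.54 and -5.56, and Nos1, the neuronal nitric oxide synthase, was not above background on any array.

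In the distal convoluted tubule 5 of 6 matched genes were above background. Kcnj16, a basolateral potassium channel subunit, read 4.86, 4.57 and 4.57. Slc12a3, the thiazide-sensitive salt carrier, read 4.32, 4.38 and 4.94, highest in replicate 3. Wnk4, the kinase that controls it, read 0.64, 0.59 and 0.67. Pvalb, the calcium buffer parvalbumin, was not above background on any array. In the connecting tubule list all 5 genes were above background. Klk1, tissue kallikrein, read 7.42, 6.96 and 7.07, S100g (calbindin-D9k) 2.10, 2.07 and 2.21, and Calb1 (calbindin-D28k) 1.90, 1.63 and 1.96.

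Genes of both main cell types of the collecting duct were above background. All 11 matched principal cell genes were above background, led by Aqp2, the vasopressin-regulated water channel, at 6.40, 6.70 and 6.63. Hsd11b2, which shields the mineralocorticoid receptor from glucocorticoids, read 5.06, 5.07 and 5.17, and Aqp3, the basolateral water channel, 4.62, 4.57 and 4.90. All 15 matched intercalated cell genes were above background as well. Atp6v1g3, a proton pump subunit, read 5.94, 5.87 and 5.70. Slc26a4, the chloride-bicarbonate exchanger pendrin of type B cells, read 5.44, 5.42 and 5.49. Atp6v1b1, another pump subunit, read 3.49, 3.50 and 3.59. Slc4a1, the anion exchanger of type A cells and red cells, had a mean of 2.50. Genes of osmotic adaptation and of the medulla were dimmer, with a median of 0.26 over 6 genes, all above background. Their brightest members were the inositol carrier gene Slc5a3 (2.30, 2.71 and 2.32) and the taurine carrier gene Slc6a6 (0.42, 0.48 and 0.62). Slc14a2, the urea carrier of the inner medullary collecting duct, lay at -2.96.

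Endothelial genes had a median of 0.39 and 11 of 11 above background. Plvap, which forms the diaphragms of fenestrated capillaries, read 5.64, 5.83 and 6.03. Kdr, the receptor for vascular endothelial growth factor, read 4.60, 4.49 and 4.65, and Pecam1 2.20, 2.36 and 2.41. Of 11 genes of mesangium, smooth muscle and juxtaglomerular cells, 9 were above background. Notch3 read 4.01, 4.15 and 4.12, and Tagln read 0.30, 0.06 and 0.36. Akr1b7, an aldo-keto reductase gene, was not above background on any array. Of 8 fibroblast genes, the collagen gene Col1a2 read 3.66, 3.28 and 3.90, the decorin gene Dcn 2.56, 2.45 and 3.31, and Pdgfra 2.01, 1.86 and 2.34. Replicate 3 was highest in each of these fibroblast genes. Epo, erythropoietin, Lum and Postn were not above background on any array.

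Genes of blood cells were read as well. Of 12 leukocyte genes 11 were above background, led by the macrophage lysozyme gene Lyz2 (6.38, 6.47 and 6.63), the MHC class II invariant chain gene Cd74 (4.99, 5.13 and 5.49) and the complement gene C1qb (3.28, 3.41 and 3.19). The T cell gene Cd3e was above background on 2 of the 3 arrays, at -4.73, -6.85 and -4.96. Itgam, an integrin gene of myeloid cells and the only one of the 11 with a range above 1, read -4.34, -3.57 and -5.63. Red cell genes were Hba-a1 (8.25, 8.38 and 8.66), the beta globin gene Hbb (7.53, 7.58 and 7.82) and the erythroid haem synthesis gene Alas2 (0.50, 0.56 and 0.83), and Ahsp lay at 0.04. Replicate 3 was highest and replicate 1 lowest in the first 3 of these, by at most 0.41.

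Genes of neighbouring and remote tissues were mostly dim or at background. Over 9 lists, 32 of 57 genes (56.1%) were above background on all 3 arrays and 21 (36.8%) on none, against 77.3% and 17.7% of all genes. Their median signal was -4.95. For the adrenal cortex, Cyp21a1 (-1.33, -1.18 and -1.44), Cyp17a1 (-2.44, -2.55 and -2.31) and Cyp11a1 (-4.78, -5.64 and -4.91) were above background, whereas Cyp11b1, Star, Mc2r and Nr5a1, which define steroid-making adrenal cells, were not on any array. For the adrenal medulla, Th read 0.88, 1.29 and 1.43 and Pnmt -1.68, -1.29 and -1.34, while Dbh was not above background on any array and Chga on some only. The other Th probe had a mean of -5.35 and the other Cyp21a1 probe one of -7.07. The part of adrenal tissue in these values was not tested. Fat cell genes were Cidec (0.64, 0.75 and -0.14), Adipoq (-0.08, -0.35 and -0.30) and Cidea (-0.14, -0.17 and -0.55), and Lep was not above background on any array.

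Among liver genes, Serpinc1, antithrombin, read 6.58, 6.23 and 6.55 and stood 5.56 above the next, the fibrinogen gene Fga (0.79, 0.75 and 1.14). Apoh, an apolipoprotein, read 0.38, 0.50 and -1.44, low in replicate 3. Ttr, Cyp7a1 and Tat were not above background on any array. Albumin (Alb) was above background on some arrays only. The urothelial list was led by Tp63 (2.79, 2.95 and 2.80), of which another probe was at -8.13. Upk1b (-2.75, -2.03 and -2.36) and Upk1a (-2.99, -1.96 and -2.90) followed, and Upk2 was not above background on any array. The dimmest Upk1b probe had a mean of -7.86. In muscle, Actc1 (1.51, 1.64 and 1.59) stood above Acta1 (-3.69, -3.72 and -3.55) and Ckm (-4.10, -3.37 and -3.89) by its brightest probe. The dimmest Actc1 probe had a mean of -6.86. Myh6 and Myl1 were not above background on any array. Of 6 brain genes, the myelin gene Mbp (-1.20, -1.30 and -1.06) alone was above background, and its dimmest probe had a mean of -6.80. Gfap, Nefl, Snap25, Syt1 and Gria2 were not above background on any array. In the pancreas list Ctrb1 (-1.64, -1.53 and -1.51), Ins1 (-2.12, -1.86 and -2.08) and Ins2 (-4.94, -4.46 and -5.44) were above background, and Cela1, Cpa1 and Gcg were not on any array. In the testis list Prm2 (-3.78, -3.55 and -3.53), Prm1 (-3.98, -3.61 and -3.84) and Tnp2 (-4.80, -4.43 and -5.04) were above background, and Odf1 was not on any array.

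**Figure D2:**
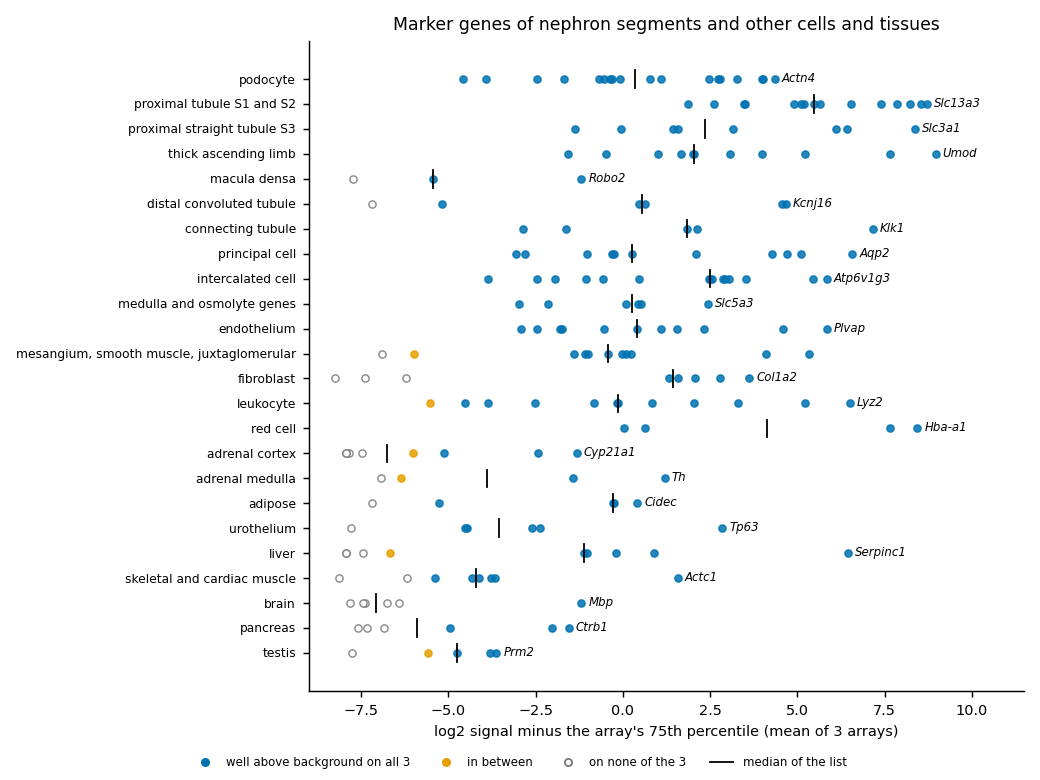
Marker genes of 15 cell lists (top) and 9 lists of other tissues (bottom), each point the mean of 3 corn oil arrays of 1 gene, with the brightest gene of most lists named. The x axis is log2 processed intensity minus the array's 75th percentile; filled blue points were well above background on all 3 arrays and open points on none, and black lines are list medians, the highest of which is 5.46 for proximal tubule S1 and S2.

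Paralogs were read in 39 families of transporters, enzymes and receptors, with 484 matched genes. Some families also hold partner subunits that are not paralogs, such as Cyba beside Nox4, and a gap between such members is not one between paralogs. Of these, 422 (87.2%) were above background on all 3 arrays and 40 (8.26%) on none, against 77.3% and 17.7% of all genes. In 15 families every matched member was above background. In 38 families the 2 brightest members were both above background on all 3 arrays. Among these, the brightest stood above the next by more than 4.46, the 90th percentile of the difference between probes of 1 gene, in 2 families and by 3.05 to 4.46 in 4. In 27 families the gap was no larger than the median of 1.70, and the order of the leading members does not show which transcript is more abundant.

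The NADPH oxidase and multidrug and toxin extrusion families each had a member far above the next. Slc47a1, the cation exchanger MATE1 of the brush border, read 4.14, 3.99 and 3.93, while Slc47a2 read -5.40, -5.81 and -5.50 and was above background on 2 of the 3 arrays, so that no size is given for their difference. Cyba, the membrane subunit shared by several NADPH oxidases, read 7.80, 7.66 and 7.74, and Nox4, the catalytic subunit known from kidney tubules, read 1.17, 1.24 and 1.18, a gap of 6.54. The phagocyte subunit gene Cybb was at -3.29, and Nox3 was not above background on any array. All 10 chloride channel genes were above background, among them the accessory subunit gene Bsnd (1.97, 1.90 and 2.15).

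Carriers of sugars and phosphate followed with a lead of over 3. Slc5a2 (7.32, 7.44 and 7.39) stood 3.63 above Slc5a10 (4.05, 3.70 and 3.52), a mannose and fructose carrier, among 10 of 11 members above background. Slc5a1 was at -1.38 and the choline carrier gene Slc5a7 was not above background on any array. Slc34a1 stood 3.35 above Slc34a3 (5.11, 5.09 and 5.35), a second phosphate carrier of the brush border. All 8 matched phosphate carrier genes were above background, and Slc34a2, the carrier known from lung and gut, lay at -3.30 with a range of 1.30. Among facilitative glucose carriers the gap was only 0.78, between Slc2a2 (3.45, 3.43 and 3.52), the basolateral carrier of the proximal tubule, and Slc2a5 (3.04, 2.91 and 2.10), a fructose carrier. The muscle and fat carrier gene Slc2a4 was at -2.15, and Slc2a3 and Slc2a10 were above background on some arrays only. Slc13a3 stood 3.59 above the citrate carrier gene Slc13a2 (5.0, 4.90 and 5.44), and the sulfate carrier gene Slc13a1 was at 3.94.

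Among organic ion carriers (Slc22), Slc22a6 stood only 0.39 above Slc22a8 (7.75, 7.78 and 7.99), so that both basolateral anion exchangers were among the 100 brightest genes. The cation carrier gene Slc22a2 (5.17) and the urate carrier gene Slc22a12 (4.71) were lower. Slc22a3 was the only one of 17 members that was not above background on any array. The Slco carriers were dimmer, with a median of -1.94. Slco1a1 read 2.97, 2.92 and 1.96, Slco1a6 2.03, 2.18 and 0.80 and Slco1a5 1.05, 1.41 and 0.30, and replicate 3 was low in all 3. Slco1c1, the thyroxine carrier of brain vessels, was not above background on any array. Among ATP-driven pumps, Abcg2 (3.89, 4.09 and 3.82) stood 1.48 above Abcc4 (2.19, 2.51 and 2.66). Abcc2 was at 2.13, Abcb1b at -1.05 and Abcb1a at -4.55, and the sterol pump genes Abcg5 and Abcg8 were not above background on any array.

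Amino acid carriers were many. Slc6a8, the creatine carrier, read 6.87, 6.64 and 6.75, above Slc6a18 (5.11, 5.29 and 4.89) and Slc6a19 (3.41, 3.43 and 3.61), carriers of neutral amino acids. The dopamine carrier gene Slc6a3 and Slc6a15 were not above background on any array. Of the heteromeric carriers, Slc3a1 stood 1.94 above its S3 partner Slc7a13, and its S1 and S2 partner Slc7a9 read 5.25, 5.39 and 5.48. Slc3a2, the other heavy chain, was at 4.39, with its basolateral partners Slc7a8 at 4.86 and Slc7a7 at 2.61. Slc7a5 and Slc7a10 were above background on some arrays only. Among monocarboxylate carriers all 11 matched genes were above background, led by Slc16a11 (5.32, 5.17 and 5.46) and Slc16a13 (4.34, 4.45 and 4.58), and the widely used lactate carrier gene Slc16a1 was at 2.86.

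Sodium is pumped out of all tubule cells by the sodium-potassium ATPase. Its genes were led by the beta subunit gene Atp1b1 (8.25, 8.17 and 8.17), with the regulatory gamma subunit gene Fxyd2 at 7.16. Atp1a4 was above background on some arrays only. Of the sodium-hydrogen exchangers, Slc9a2 read -0.12, -0.43 and -0.18. Slc9a3, the brush border exchanger, lay at -0.39 by its brightest probe. The 8 matched Slc12 genes were all above background, led by Slc12a3 and Slc12a8 (3.51, 3.45 and 3.92). Of the potassium channels, Kcnj16 stood 1.09 above Kcnj12 (3.35, 3.73 and 3.64), and the thick ascending limb channel gene Kcnj1 was at 1.01. Kcnj10, the partner of Kcnj16, was at -5.19, and Kcnj2, Kcnj4 and Kcnj6 were not above background on any array.

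Acid-base transport was read in bicarbonate carriers, anion exchangers and carbonic anhydrases. Slc4a4, the basolateral bicarbonate carrier of the proximal tubule, read 5.25, 4.97 and 5.09 and stood 2.55 above Slc4a2 (2.37, 2.65 and 2.64), and all 10 members were above background. Of the Slc26 exchangers, Slc26a1 read 6.27 on each array and Slc26a4 lay 0.82 lower, less than the median difference between probes of 1 gene. Slc26a3, known from the colon, and Slc26a5, known from the inner ear, were not above background on any array. The carbonic anhydrases were led by the membrane-bound Car4 (5.21, 5.17 and 5.48) and the cytosolic Car2 (4.52, 4.52 and 4.50), also closer than that difference. Car15 read 4.03, 3.37 and 4.42, and the muscle enzyme gene Car3 and the liver enzyme gene Car5a were not above background on any array.

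Water channels and tight junction claudins were read in 12 and 19 genes. Aqp1, the constitutive water channel of the proximal tubule, read 6.91, 6.90 and 6.97, only 0.35 above Aqp2, and all 12 members were above background. Aqp7, the glycerol channel of the straight tubule, was at 4.02 and the intracellular Aqp11 at 1.48. The claudins were led by Cldn19 (3.01, 3.38 and 2.77) and Cldn2 (2.82, 2.73 and 2.78), the leaky claudin of the proximal tubule. Cldn6 read -4.79, -5.00 and -2.59, high in replicate 3, and was the only claudin above background on all 3 arrays with a range above 1. Cldn11 was the only one of 19 that was not above background on any array.

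Among isoenzymes of glucose metabolism all 30 matched genes were above background. Fbp1 (8.95, 9.15 and 9.15) stood above the muscle form Fbp2, at 0.54. Pck1 (7.73), the cytosolic phosphoenolpyruvate carboxykinase, stood above its mitochondrial form Pck2 (2.23), and G6pc1 (7.30) above G6pc3 (-0.13). Khk, ketohexokinase, read 8.24, 8.29 and 8.06. Of the hexokinases, Hk1 was at 2.45, Hk3 at -3.26 and Hk2 at -4.65. Ldhb (6.85) and Ldha (6.11) differed by less than the median difference between probes of 1 gene.

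In nitrogen metabolism, Glud1 (6.50, 6.49 and 6.47) and Glul (4.98, 5.23 and 4.78) led, followed by Gatm (5.32, 4.81 and 4.56), the first enzyme of creatine synthesis. The muscle creatine kinase gene Ckmt2 was not above background on any array. In ketone and fatty acid metabolism, Cpt2 read 3.17, 3.47 and 3.42, and Cpt1a, the gate of fatty acid entry into mitochondria, read 2.19, 3.79 and 3.81. Replicate 1 was low in Cpt1a. The acyl-CoA synthetase gene Acsm2 (7.54, 7.71 and 7.68) and the glycine acyltransferase gene Glyat (6.28, 6.34 and 6.33) led their list, with all 9 members above background. Aldehyde dehydrogenases were led by Aldh1a1 (6.71, 6.82 and 7.04) and Aldh4a1 (6.55, 6.49 and 6.36), with all 16 matched members above background.

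The cytochrome P450 families held both very bright members and members at background. Of 28 matched Cyp2 genes 16 were above background and 8 were not on any array, which were Cyp2c6v1, Cyp2a1, Cyp2g1, Cyp2c13, Cyp2b1, Cyp2c22, Cyp2c12 and Cyp2a3. Most of these are known from liver or nasal tissue. Cyp2c23 (8.41, 8.42 and 8.49) stood 2.43 above Cyp2e1 (6.02, 5.94 and 6.08), and Cyp2c11, a male-specific form of rat liver, read 1.49, 2.16 and 0.20. In the Cyp4 family, Cyp4a2 stood 0.51 above Cyp4a8 (8.33, 8.50 and 8.55), followed by Cyp4a3 (7.93), Cyp4f1 (6.46) and Cyp4a1 (5.51). The Cyp4a genes are close copies of each other, so probes may read more than 1 of them. Cyp4x1, Cyp4f4 and Cyp4f18 were above background on some arrays only.

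Conjugating and antioxidant enzymes were among the brightest genes. Gsta2 (8.27, 8.25 and 8.12) and Gsta5 (8.12, 7.95 and 7.89), alpha-class glutathione transferases and close copies, led 20 of 21 members above background, and Gstp1 was at 6.65. Of the glucuronosyltransferases, Ugt1a6 (6.57, 6.49 and 6.21) stood 1.13 above Ugt2b35 (5.25, 4.84 and 5.80), and Ugt2b10, Ugt2a3, Ugt2a1 and Ugt2b1 were not above background on any array. Mt1 and Gpx1 led the list of metallothioneins and peroxidases, followed by Mt2A (8.22), Gpx3 (7.93), which the kidney secretes into plasma, and Sod1 (7.91). Mt4, known from squamous epithelium, and Gpx5, known from the epididymis, were not above background on any array.

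Hormone metabolism and its receptors were dimmer. Hsd11b1 (6.30, 6.43 and 6.19), which activates glucocorticoids, stood 0.38 above Hsd17b4 (6.0, 5.94 and 5.86), and Hsd17b3, known from testis, was not above background on any array. The vitamin D enzymes Cyp24a1 (0.89, 1.41 and 1.57), which degrades calcitriol, and Cyp27b1 (-0.62, -0.42 and 0.25), which makes it, were highest in replicate 3. Esrra (4.99, 4.92 and 4.97) and the bile acid receptor gene Nr1h4 (5.07, 4.91 and 4.86) differed by 0.01 and led the nuclear receptors, and Pgr, the progesterone receptor, was not above background on any array. Agt, angiotensinogen, read 3.30, 3.44 and 2.23, and Agtr1a was at 2.57, while Agtr2 was not above background on any array.

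Brush border peptidases were led by Ggt1 and Dpp4 (6.22, 5.95 and 5.89), 0.10 apart, with all 12 above background, and Mep1b, a meprin subunit, read 5.39, 5.39 and 4.30. Endocytic receptors were led by Lrp2 (6.52, 6.38 and 6.68), Amn (5.61, 5.60 and 5.68) and Cubn (5.49, 5.36 and 5.53), the proteins that take up filtered protein together. Of the transcription factors that define the tubule, Pax8 read 2.09, 2.51 and 2.43 and Hnf4a had a mean of 0.77. Pax3, not known as a kidney gene, had the brightest probe of that list (4.55, 4.42 and 4.62), but another of its 4 probes lay at -6.78. Pax4, Pax7, Pax9, Onecut1, Foxa2 and Foxa3 were not above background on any array.

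**Figure D3:**
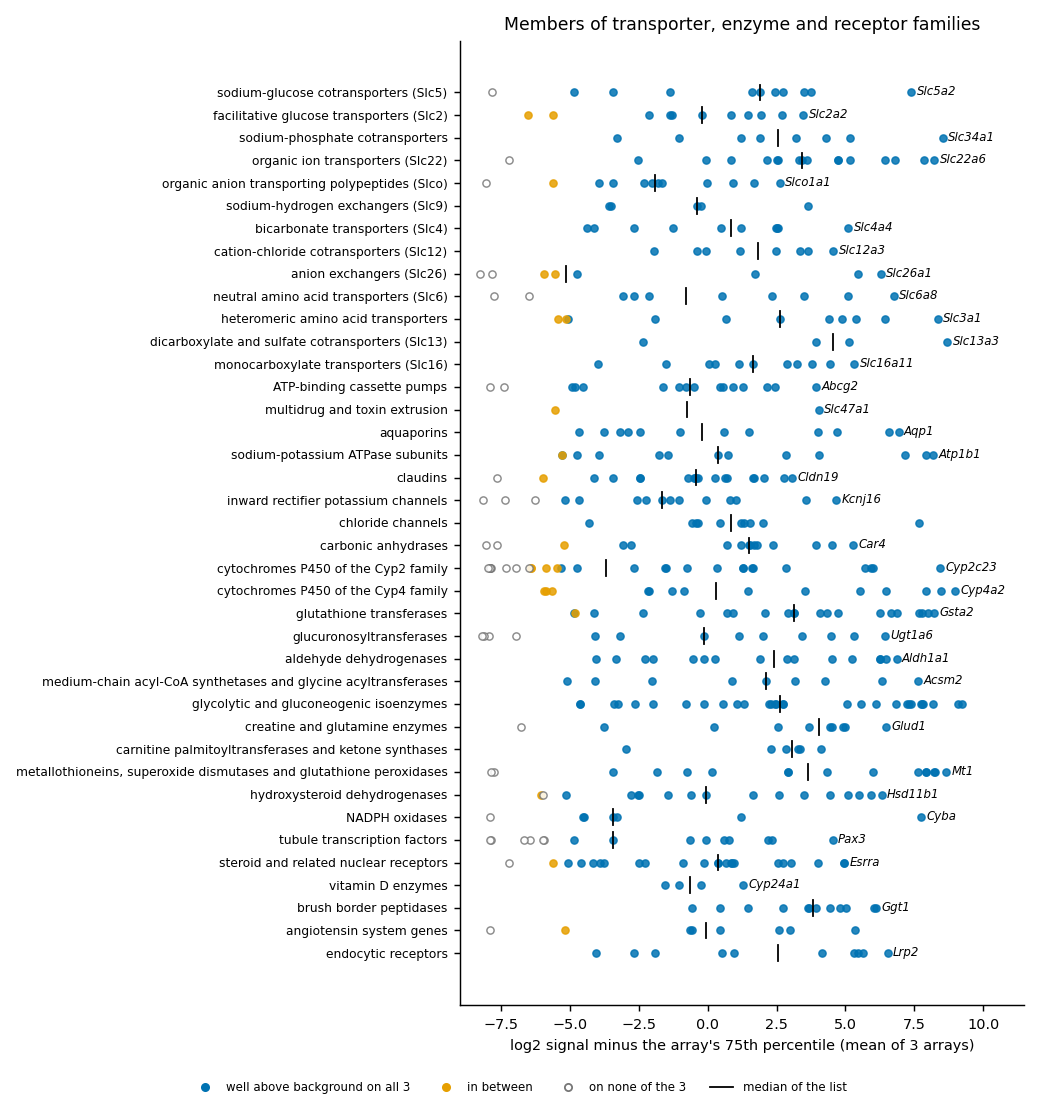
Members of 39 gene families, each point the mean of 3 corn oil arrays of 1 gene on the log2 scale relative to the array's 75th percentile, with the brightest member of most families named and black lines at family medians. Filled blue points were well above background on all 3 arrays, orange points on some and open points on none. Cyba and Nox4 of the NADPH oxidases, different subunits and not paralogs, lie 6.54 apart. This is the widest gap between the 2 brightest members of a family where both were above background on all 3 arrays.

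Groups of genes defined by the form of their symbol showed where the array read background. Of 1111 olfactory receptor genes, which encode the odour receptors of the nose, 764 (68.8%) were not above background on any array, against 17.7% of all genes. The share was 72.4% of 116 vomeronasal receptor genes and 83.9% of 31 bitter taste receptor genes. Some were well above background all the same, namely 212 olfactory receptor genes (19.1%), the brightest of which, Or2ak6, had a mean of 3.28. At the other end, 77 of 79 genes of cytosolic ribosomal proteins and 72 of 73 genes of the respiratory chain and ATP synthase were above background, with median signals of 6.81 and 6.40. All 37 proteasome genes and 20 of 21 vacuolar ATPase genes were above background as well, at medians of 3.47 and 3.42.

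The Hox genes, which give cells their place along the body axis, were read in 22 matched genes, of which 16 (72.7%) were above background on all 3 arrays, close to the 77.3% of all genes. Hoxb7 read 4.08, 4.10 and 3.95, Hoxd9 3.72, 3.52 and 3.75 and Hoxa7 3.41, 3.26 and 3.30, so that groups 7 and 9 held the brightest members. Hoxd10 was at 1.47 and Hoxa11, a gene known for its part in kidney formation, at 0.05. The lowest and highest numbered groups held the members below background, since Hoxd1, Hoxc12, Hoxb13 and Hoxd13 were not above background on any array. Members of a group also differed, since Hoxd12 was above background on all 3 arrays and Hoxb9 lay at -3.65.

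Genes that differed between the 3 arrays were counted by the range from the lowest to the highest array. Each rat had 1 array, so differences between animals and between array preparations cannot be told apart. Of the 11807 genes above background, 385 (3.26%) had a range above 1, a difference of over 2-fold, 51 had a range above 2 and 14 above 3. The smallest range counted was 1.0003 and the largest not counted 0.9997. The count was 241 without replicate 1, 222 without replicate 2 and 142 without replicate 3. By pairs, 137 genes (1.16%) were over 1 apart between replicates 1 and 2, 219 (1.85%) between 1 and 3, and 236 (2%) between 2 and 3, the pair that shares a slide. Replicate 3 stood apart from the other 2 in 201 of the 385 genes (52.2%), against 37.9% of all genes above background. Replicate 1 did so in 86 (22.3%, against 36%) and replicate 2 in 98 (25.5%, against 26.1%). In 124 of its 201 genes replicate 3 was the low array. Wide ranges were more frequent at low signals, with 6.91% of genes in the dimmest quartile and 1.49% in the brightest.

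**Figure D4:**
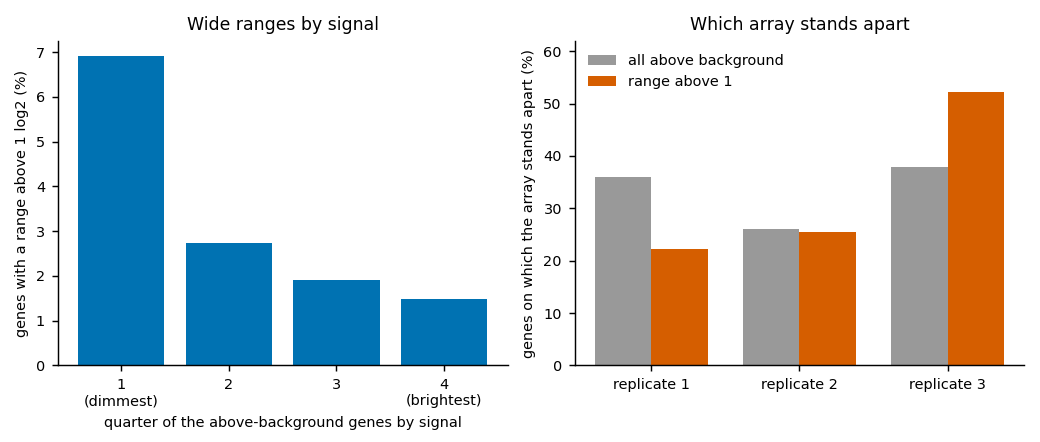
Share of above-background genes with a range above 1 log2 by quartile of signal (left), and share of genes in which each corn oil array stands apart from the other 2 (right), for all 11807 genes above background (grey) and the 385 with a range above 1 (orange). The share falls from 6.91 to 1.49% with signal, and replicate 3 stands apart in 52.2% of the 385 genes.

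A second probe of the same gene often repeated the pattern. Among all 6076 genes with a second probe above background, the same array stood apart in the same direction on both probes in 38.7%. Among the 141 of the 385 variable genes that had such a probe the share was 74.5% (105 genes), and in 80 of them the second probe also had a range above 1.

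The widest range belonged to Gal, which encodes the neuropeptide galanin. Its brightest probe read 4.38 on replicate 1 and -5.68 and -5.24 on replicates 2 and 3, a range of 10.05, from intensities of 24759, 17.7 and 25.2. Its second probe read 3.47, -6.65 and -6.15. Replicate 1 alone was high on both probes, and no other named gene above background had a range over 5. Apoa1, an apolipoprotein of plasma high-density lipoprotein, was also high in replicate 1 alone, at -1.71, -5.65 and -5.23. Or2n1el1, Or2n1j, Or52n20 and Lcn9 were further genes high in replicate 1, all with means below -1. Low in replicate 1 were Matn1, a cartilage matrix protein (-3.84, -0.53 and -0.21), Or10d5j and Gp2, a membrane glycoprotein related to uromodulin (-0.49, 2.08 and 2.02). Both Matn1 probes were low in replicate 1.

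In replicate 2 alone, Ubd, a ubiquitin-like protein induced by inflammatory cytokines, was low at 1.55, -3.22 and 1.68. Akr1b8, an aldo-keto reductase, was low as well, at 3.22, -0.31 and 3.26. Trim16, Prl3d4, Mis18a and Dnmt3l were the other genes low in that array. Trim16 read -1.40, -5.38 and -1.60, and 1 of its other probes showed the same order while the third did not (-3.37, -3.38 and -3.53). Plaat1 was high there on all 3 of its probes, and Tex10 on 1 of its 3 probes.

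Replicate 3 held the lens crystallin genes Cryga (0.56, 0.66 and 4.76) and Crygd (-2.23, -1.91 and 2.16) as high genes. Another Crygd probe read -2.83, -2.53 and -2.71, so that the pattern was on 1 probe of that gene. Crystallin genes are close copies, so that both probes may read the same RNA, which was not tested. RT1-CE15, an MHC class I gene, Klkb1, plasma prekallikrein, and Lpal2 were also high there. Low in replicate 3 were Tmem125, a membrane protein (1.59, 1.62 and -2.50), Depp1 (1.74, 2.49 and -0.13), Clstn2, Armh1, Paep, Smpd3 and Slc35f1. Of the 30 genes with the widest range, only 7 had a mean above 0, and 4 were olfactory receptors. The 30 split into 9, 9 and 12 in which replicates 1, 2 and 3 stood apart. The range of the last of the 30 and of the next gene was 2.41. With normexp background correction and quantile normalization, 16 of the 30 ranges were over 1.5 times smaller.

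**Figure D5:**
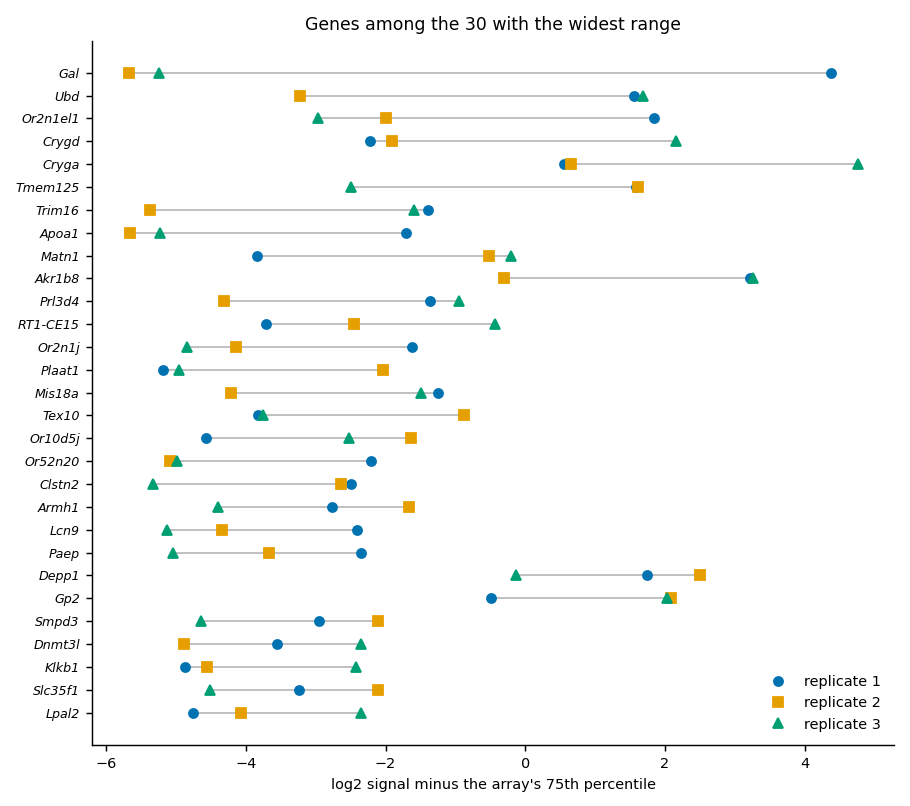
Signals on replicates 1 (circles), 2 (squares) and 3 (triangles) of 29 of the 30 genes with the widest range among those above background on all 3 arrays, on the log2 scale relative to the array's 75th percentile. Grey lines join the lowest and highest array; Gal spans 10.05, with replicate 1 high, and Lpal2, the last, 2.41.

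Ranges above 1 were counted in each kind of list. Of 422 above-background family genes 32 (7.58%) had one, of 98 genes of 9 response lists 17 (17.3%), of 32 genes of other tissues 3 (9.38%) and of 136 cell markers 3 (2.21%), against 3.26% of all genes. Over all lists 48 genes had such a range, and replicate 3 stood apart in 33 of them, replicate 2 in 11 and replicate 1 in 4. These lists were chosen with earlier results of these arrays known, so the shares are descriptions, and the differences between them were not tested.

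Male-biased and hormone-dependent genes included 4 such genes among 8 above background. Slc7a13 (6.84, 6.90 and 5.51), Cyp2c11 (1.49, 2.16 and 0.20) and Slco1a1 (2.97, 2.92 and 1.96) were low in replicate 3, whereas Slc22a7 was high in replicate 1. Kap, also of this list, was lowest in replicate 3 as well, but with a smaller range. Cyp4a2, another member, read 8.63, 9.14 and 9.13 and was lowest in replicate 1. Cyp2c11 had the largest range of the list, 1.95, and Cyp3a2, Cyp2c13 and Cyp2c12 were not above background on any array. Slco1a6, Slco1a5, Slco4c1, Mep1b, Agt, Hsd3b1, Hsd3b2, Ugt2b7, Cyp2j4, Slc7a12 and Gpx2 were among family genes with replicate 3 lowest and a range above 1. Other family genes, such as Cldn6, were high in that array. Over all genes with a range above 1, replicate 3 stood apart as the low array in 124 and as the high array in 77. Hsd3b1 and Hsd3b2, enzymes of steroid synthesis, read 0.20, 0.57 and -0.98 and -2.76, -2.19 and -3.41. The Slco1a genes and the Hsd3b genes are close copies within each set, and whether their probes read the same RNA was not tested.

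Fasting and glucocorticoid genes included 4 of 11. Cpt1a had the largest range (1.63, low in replicate 1), while Sgk1 (2.90, 3.4 and 2.10) and Tsc22d3 (2.29, 1.99 and 1.24), both glucocorticoid-induced, were low in replicate 3. Pck1, the main gluconeogenic enzyme gene, hardly varied, at 7.75, 7.67 and 7.78. Among clock genes Nr1d1, which encodes the repressor REV-ERB alpha, had the largest range, at -3.47, -2.66 and -1.56, and Per1 read -2.05, -1.49 and -3.20. Replicate 3 was highest for Nr1d1 and lowest for Per1, while replicate 2 was above replicate 1 in both. Dbp, an output gene of the clock, read 3.13, 3.23 and 2.81.

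Immediate early genes with a range above 1 were Ccn2 (1.19, 2.48 and 1.41), Atf3 (-1.06, -0.12 and -1.16) and Zfp36 (-2.32, -1.64 and -2.94). Replicate 2 was highest in all 3, and the range of Zfp36, 1.30, was the largest of that list. Of the interferon-stimulated genes, Rtp4 (1.16, -0.38 and 0.11) had the largest range and Irf7 (1.18, 0.96 and 2.25) was highest in replicate 3. By their brightest probes, Igtp (7.19, 7.39 and 7.40) and Mx2 (6.45, 6.24 and 5.99) had ranges well under 1. The other probes of Igtp and Mx2 had means of 0.14 and -3.26. Of the MHC genes RT1-CE10 had the largest range (-0.88, -0.86 and 0.43), and B2m, the light chain of class I molecules, read 7.33, 7.30 and 7.48. Heat shock genes had no member above background with a range above 1, and Hsp90aa1 had the largest (5.64, 5.33 and 5.10). In the immunoglobulin list only Cd79b was above background (-4.43, -4.63 and -4.88).

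Of the genes that rise in injured tubules, Clu, clusterin, had the largest range, at 2.66, 3.81 and 4.12, with replicate 1 lowest. Its other probe had a mean of 3.44. Havcr1, which encodes the injury marker KIM-1, was near the lower end of detection at -4.67, Lcn2 was at -2.15 and Krt20 was not above background on any array. Spp1, osteopontin, read 2.60, 2.87 and 3.13 and Krt18 2.83, 2.93 and 2.97, and replicate 1 was lowest and replicate 3 highest for these and for Clu.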

How the data were processed

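Spot intensity on a linear scale was read from the deposited scanner output, which Agilent Feature Extraction (10.7.1.1 in the headers, 10.7 in the submitters' processing notes) wrote; it was corrected for background and spatial trend but not scaled between arrays, per the file headers. The deposited value table of intensity per probe matched the processed intensity divided by the array's 75th percentile within 0.01 log2 for 90.7 to 91.4% of probes. Its column medians were 0.109, 0.113 and 0.114 in replicates 1, 2 and 3, and no header states its scale.

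From the scanner files of the 3 corn oil arrays, log2 processed intensity was taken relative to each array's own 75th percentile of non-control probes, and 7, 2 and 4 spots with outlier flags were left out. Probes were named by matching unversioned accessions to a RefSeq gene table (rat, GRCr8), used for names only since the array design is on another build per the file headers. Each gene is represented by its brightest probe, and above background means the software's well-above-background flag on all 3 arrays. A gene is not above background only if all its probes carry no such flag on any array, which bounds its signal and does not show absence. Promoters were read from the RefSeq table of GRCr8, which held 12488 of the 15284 genes. Symbols without a match were not analysed here.

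The members and gene lists were chosen with earlier results of these data known. Named were the 30 brightest genes, the brightest 3 of each marker list and the brightest 2 of each family on every array, members at background, the 30 genes with the widest range, and in each response list the member with the widest range. A few genes that meet these rules are not reported here. Other genes, the groups by symbol and the promoters were chosen after their values were seen. Alternatives were other scalings, normexp correction (limma 3.58.1, R 4.3.3, offset 50) with quantile normalization, the value table, other ways to combine probes, other filters and each array left out. The planned normexp correction ran on median spot signals. Counts were made with Python 3.11.15 and pandas 2.3.3. The number of arrays limits the precision.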

Additional observations from a re-analysis of the deposited data

Results flagged for a closer look

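Probes without a gene symbol carried signal that the description above does not use. Of 34197 such probes, 20778 were well above background on all 3 corn oil arrays. This is a count of probes, whereas the 11807 above background are genes counted by their brightest probe. Among the 20778 probes 738 (3.55%) had a range above 1 between the arrays. Of the probes without a symbol, 7 were brighter than the brightest named gene. Probes A_64_P016928 and A_64_P105254 were saturated on all 3 arrays, at 9.50, 9.98 and 9.84 and at 9.45, 9.85 and 9.75 on replicates 1, 2 and 3. No probe of a named gene was saturated.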

How the results depend on the processing

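The count of genes with a range above 1 (385) moved most. It was 207 with normexp and quantile normalization, 1512 with no filter on dim probes, 51 with a range above 2, 142 to 241 with 1 array left out, and 241 with only the arrays of the shared slide, which is the same as leaving out replicate 1. Genes not above background (2710) numbered 1031 when every positive and significant spot counted as above background. With unnamed probes as entries of their own, 32585 entries were above background and 13483 were not. All 30 of the genes with the widest range kept a range above 1 under each other scaling, under the mean of the above-background probes and with no filter. Normexp with quantile normalization nevertheless made 16 of the 30 ranges over 1.5 times smaller, with 1.19 in place of 2.41 for Lpal2. Of the 30, 28 kept a range above 1 under the median of all probes (not Crygd, at 0.300, and Tex10, at 0.459), and 20, 22 and 22 did so without replicates 1, 2 and 3. Of the 30 brightest genes, 27 stayed above the 99th percentile under the mean or the median of their probes and all 30 under the other settings, and Ceacam9 fell to a percentile of 72.47 under the median. No paired analysis was possible because only 1 group is described. Signals near background carry the least certain order.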
